A study of Mus musculus with 10 samples.

Results

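The miRNAs described here are 10 that are best known from white blood cells, measured in whole mouse liver: miR-150, miR-155, miR-181a, miR-142-3p, miR-142-5p, miR-342-3p, miR-342-5p, miR-223, miR-146a and miR-146b. They were chosen by name, as the probes whose miRNA name on the array equals one of the 10, and each name matched 1 probe of the 655 on the array. The comparison asked whether miR-150 differed between LivPGC-1α and WT livers alone or together with the other miRNAs of immune cells. LivPGC-1α mice carry a human PGC-1α transgene behind an apolipoprotein E promoter that drives it in the liver, and WT mice are the unmodified animals of the same FVB/N strain. Both genotypes were aged 4 months and, by the study's account, fasted overnight before the liver was taken. RNA of 5 LivPGC-1α and 5 WT livers was hybridised, 1 array per liver. All 10 arrays were on 1 BeadChip, those of LivPGC-1α livers on its last 5 sections and those of WT livers on its first 5. Genotype and position on the chip therefore cannot be told apart. The labels number 5 separate livers per genotype, and if any share a mouse, a p-value covers only how far these samples vary, which may be technical.

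A miRNA is a short RNA that guides an Argonaute protein to messenger RNAs, mostly through its seed, the bases near its 5′ end, and thereby lowers the output of those messengers. Blood cells carry characteristic miRNAs. miR-142 is made in nearly all cells of haematopoietic origin, miR-223 in granulocytes and other myeloid cells, and miR-150 in mature B and T lymphocytes, where Myb is a known target in mice. The liver holds resident macrophages (Kupffer cells), lymphocytes and the blood that remains in its vessels, so that a whole-liver extract contains RNA of all of them. In such an extract, fewer cells of a type and less miRNA per cell cannot be told apart.

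The mature sequences are shown because shared bases are what lets 2 members reach the same targets or the same probe. They come from RefSeq on GRCm38.p6, which held 9 of the 10 members by name, and run 5′ to 3′ with the seed, bases 2 to 8, in capitals.
miR-155: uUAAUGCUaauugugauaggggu
miR-181a: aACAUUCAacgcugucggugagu
miR-142-3p: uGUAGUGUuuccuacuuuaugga
miR-142-5p: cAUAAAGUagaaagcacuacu
miR-342-3p: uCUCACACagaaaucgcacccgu
miR-342-5p: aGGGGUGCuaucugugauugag
miR-223: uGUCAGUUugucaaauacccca
miR-146a: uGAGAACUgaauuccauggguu
miR-146b: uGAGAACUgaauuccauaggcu
The 9 sequences hold 8 distinct seeds. Only miR-146a and miR-146b share one, and from miR-146a to miR-146b the bases differ at G18A and U21C, counted from 1 at the 5′ end, so that cross-hybridisation between their probes is possible and was not tested. miR-142-3p with miR-142-5p, and miR-342-3p with miR-342-5p, are the opposite arms of 1 hairpin each. In the RefSeq annotation, Mir150 on chromosome 7 lies in no other gene. Mir155 lies in its non-coding host Mir155hg on chromosome 16, Mir342 within Evl on chromosome 12, and miR-181a is encoded by Mir181a-1 on chromosome 1 and by Mir181a-2 within Nr6a1 on chromosome 2.

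Signals below are bead intensities in arbitrary units after quantile normalization, which gives all arrays the same set of values, so that exactly equal signals on different arrays occur. A probe was taken as detected at a detection p of at most 0.01 on an array, and 513 probes detected on at least 1 array were tested with limma. Changes are differences of log2 signal, LivPGC-1α minus WT, and a call required a Benjamini-Hochberg adjusted p under 0.05. Between 431 and 457 probes were detected on the LivPGC-1α arrays and between 423 and 482 on the WT arrays, and all 10 members were detected on every array. The arrays WT 1, WT 3 and WT 5 stood apart, with a residual SD over the tested probes of 0.37, 0.33 and 0.37 on the log2 scale against 0.11 to 0.18 on the other 7 arrays. The liver label held against its markers, since miR-122, miR-192 and miR-194 were detected on all arrays, with a summed signal of 127825 to 129938 in LivPGC-1α and 124195 to 130084 in WT livers. The transgene itself is not read by a miRNA array.

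miR-150 had the lowest p of the 10 members and was the one member whose genotypes did not overlap, but it did not pass the adjusted threshold. Its signal was 23677, 23677, 23881, 19913 and 22746 on LivPGC-1α arrays 1 to 5, against 18979, 19332, 16442, 17084 and 14611 on WT arrays 1 to 5. Every LivPGC-1α array lay above every WT array, although the gap between the lowest LivPGC-1α array (array 4) and the highest WT array (array 2) was small. The means were 22779 ± 1662 in LivPGC-1α and 17290 ± 1934 in WT livers (SD, n = 5 each), a ratio of 1.32. The log2 change was 0.40 ± 0.08 (SE), with a 95% confidence interval of 0.21 to 0.59, an unadjusted p of 0.000842 and an adjusted p of 0.0864 by limma. By p it ranked 5 among the 513 tested probes, and 25 of these, or 4.87%, had genotypes that did not overlap. In the scanner signal before normalization the order was the same in part: miR-150 read between 20862 and 25743 on the LivPGC-1α arrays and between 14889 and 21569 on the WT arrays, where WT 2 reached above LivPGC-1α 4. Without WT 5, the array with the lowest miR-150, the change was 0.34 (adjusted p = 0.131), and leaving out WT 1, WT 3 and WT 5 gave 0.32 (adjusted p = 0.317). Scaled instead to the 75th percentile of all probes of each array, miR-150 was called (0.55, adjusted p = 0.00673), as were 80 of the 513 probes, miR-142-3p among them (0.20, adjusted p = 0.0405). With a linear term for position on the chip the change was 0.73 ± 0.13 (SE) and the adjusted p 0.177. The same term gave 0.59 for miR-155 and 0.55 for miR-142-5p, neither of which was called. No chip section was shared by the genotypes, so that this term cannot separate position from genotype.

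**Figure D1:**
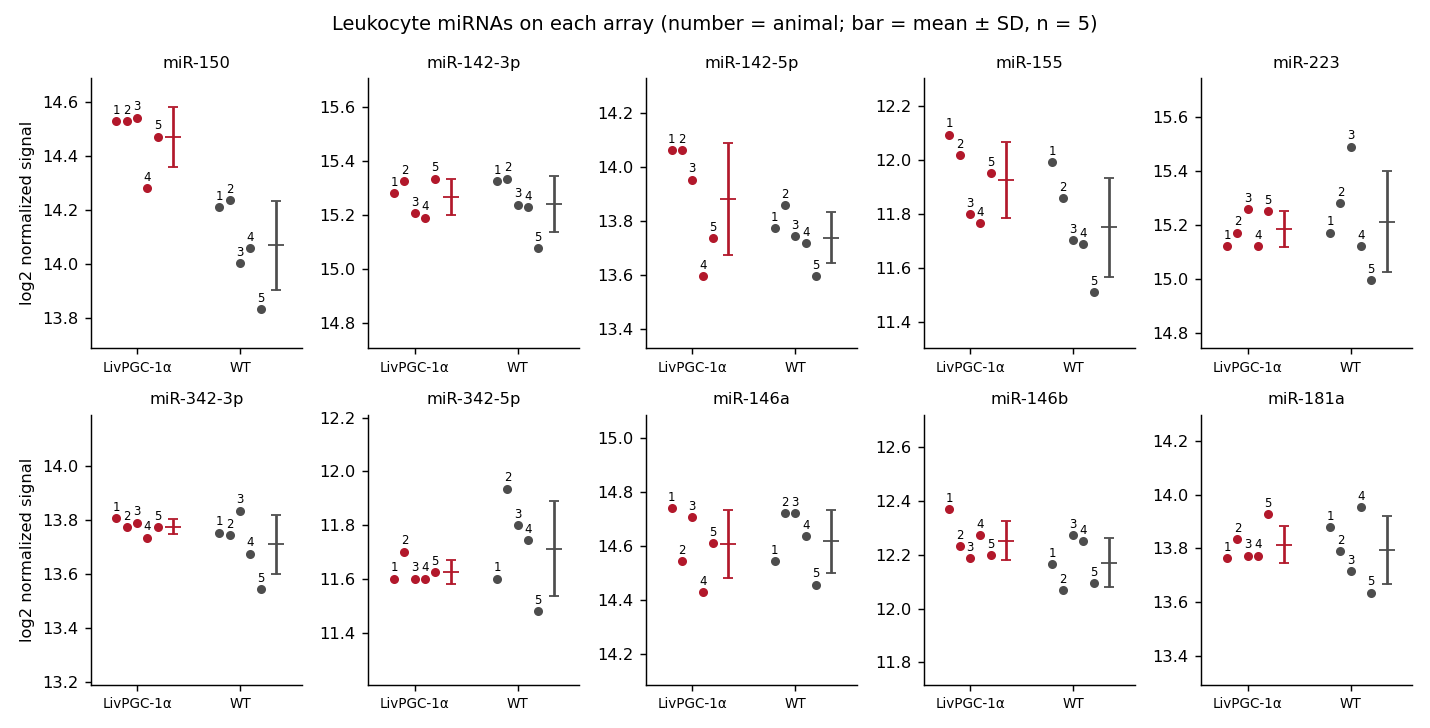
Log2 of the quantile-normalized signal of the 10 members on each array, LivPGC-1α (5 arrays) left of WT (5 arrays), 1 panel per miRNA, with points numbered by array and the mean ± SD of each group beside them. miR-150 is the one panel in which the genotypes do not overlap (signals of 19913 or more in LivPGC-1α against 19332 or less in WT), and WT 5 is the lowest WT array in 9 of the 10 panels.

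miR-155 and miR-181a, both known from lymphocytes though not confined to them, gave smaller differences than miR-150. miR-155, which is processed from the transcript of Mir155hg and accumulates in activated B cells, T cells and macrophages, had signals of 4374, 4146, 3567, 3486 and 3960 in LivPGC-1α and 4072, 3712, 3333, 3304 and 2919 in WT livers. LivPGC-1α arrays 3 and 4 lay below WT arrays 1 and 2, so that the genotypes overlapped, and the change was 0.18 ± 0.10 (SE, adjusted p = 0.449). miR-181a, which tunes T-cell receptor signalling in mouse thymocytes and is also made in many tissues outside blood, had signals between 13901 and 15588 in LivPGC-1α and between 12733 and 15855 in WT livers. Its WT range contained the whole LivPGC-1α range, and the change was 0.02 ± 0.06 (SE, adjusted p = 0.945).

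The 2 arms of miR-142 and of miR-342 did not pass the test either. miR-142-3p, the arm of the miR-142 hairpin best known as a mark of blood cells, had signals of 39844, 41061, 37869, 37423 and 41361 in LivPGC-1α and 41061, 41361, 38696, 38403 and 34608 in WT livers. The highest value was the same in both genotypes, and the change was 0.03 ± 0.05 (SE, adjusted p = 0.925). miR-142-5p, from the opposite arm, had signals of 17084, 17084, 15855, 12372 and 13626 in LivPGC-1α and 14007, 14860, 13718, 13460 and 12372 in WT livers. LivPGC-1α arrays 1 to 3 lay above all WT arrays while array 4 equalled the lowest of them, and the change was 0.14 ± 0.10 (SE, adjusted p = 0.542). miR-342, whose hairpin sits in the gene of the actin regulator Evl, gave changes of opposite sign from its 2 arms, 0.07 ± 0.05 for miR-342-3p (adjusted p = 0.601) and −0.09 ± 0.08 for miR-342-5p (adjusted p = 0.673). Without WT 5 these were 0.024 and −0.14, and without WT 2 miR-342-5p gave −0.030. Both arms had the smaller SD in LivPGC-1α livers, as had 8 of the 10 members and 67.1% of all tested probes, with signals of 13626 to 14327 in LivPGC-1α and 11932 to 14611 in WT for miR-342-3p, and of 3110 to 3333 in LivPGC-1α and 2860 to 3919 in WT for miR-342-5p.

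The myeloid and the inflammation-induced members overlapped between the genotypes too. miR-223, which restrains granulocyte production and activation in mice, had signals of 35672, 36911, 39220, 35672 and 38980 in LivPGC-1α and 36911, 39844, 46051, 35672 and 32673 in WT livers. WT 3 held the highest and WT 5 the lowest signal of all 10 arrays, and the change was −0.03 ± 0.08 (SE, adjusted p = 0.945). miR-146a, which is induced by NF-κB and represses Traf6 and Irak1, read between 22042 and 27368 in LivPGC-1α and between 22474 and 27005 in WT livers, a change of −0.01 ± 0.07 (SE, adjusted p = 0.984). miR-146b, which carries the same seed, read between 4662 and 5284 in LivPGC-1α and between 4290 and 4948 in WT livers, a change of 0.08 ± 0.05 (SE, adjusted p = 0.511).

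Counted together, 7 of the 10 members had a change above 0 and 3 below it, against 56.9% of the tested probes above 0. No member passed the adjusted threshold, which 0.39% of the tested probes passed, and 1 member, miR-150, had an unadjusted p under 0.05, against 14.4% of the tested probes. Of those 74 probes, 54 were higher in LivPGC-1α (10.5% of the tested probes) and 20 lower (3.9%). That split depended on the scaling: 156 higher and 12 lower when each array was set to the 75th percentile of all its probes, 11 higher and 86 lower with the 75th percentile of the probes detected on all arrays, 15 higher and 19 lower without normalization, and 35 higher and 43 lower with cyclic loess. The median change was 0.05 over the 10 members and 0.01 over all tested probes. Without miR-150 the 9 remaining members had a median of 0.03, a range of −0.09 to 0.18 and adjusted p-values of 0.449 to 0.984. Absolute changes were smaller among probes with a signal above 10000. The mean of miR-150 over the 10 arrays, 20034, lies at the border of 2 signal classes. Among the 64 tested probes with a mean signal between 20000 and 40000, the median absolute change was 0.04, the 95th percentile 0.20 and the highest 0.57. Among the 56 between 10000 and 20000 these were 0.04, 0.18 and 0.22, against 0.40 for miR-150.

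**Figure D2:**
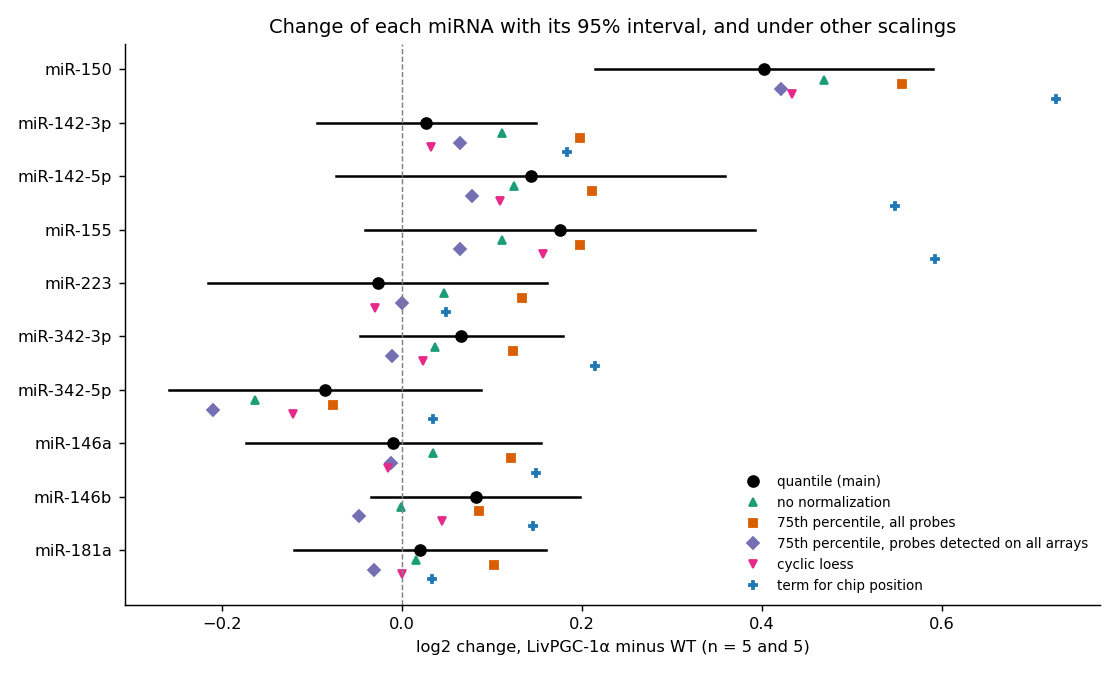
Log2 change of each member, LivPGC-1α minus WT, with its 95% confidence interval from limma over 5 arrays per genotype (black), and the same change under 4 other scalings and with a term for chip position (coloured symbols, no interval). The interval of miR-150 (0.21 to 0.59) lies above 0 and the intervals of the other 9 members include 0.

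Whether the members differed from miR-150 was tested directly, as the change in the ratio of each probe to miR-150 on the same array. All 9 other members had an adjusted p under 0.05, and so did 418 of the 512 other tested probes, or 81.6%, all of them below miR-150. The members' count is therefore read against a background in which most probes of the array gave the same answer, and all these ratios share the miR-150 signal. The difference was closest to 0 for miR-155, at −0.23 (95% confidence interval −0.40 to −0.05, adjusted p = 0.0213), and for miR-142-5p, at −0.26 (−0.44 to −0.08, adjusted p = 0.0142). It was −0.37 (−0.54 to −0.21, adjusted p = 0.00493) for miR-142-3p and −0.43 (−0.66 to −0.20, adjusted p = 0.00500) for miR-223. The most negative difference was that of miR-342-5p, at −0.49 (−0.69 to −0.29, adjusted p = 0.00493). The miR-155 call was lost without LivPGC-1α 3 (adjusted p = 0.0521) and without WT 1 and WT 3 (adjusted p = 0.113). With the term for chip position neither miR-155 (−0.13 ± 0.14, SE, adjusted p = 0.378) nor miR-142-5p (−0.18 ± 0.15, SE, adjusted p = 0.284) differed from miR-150 at the threshold. Both SEs were 0.08 without that term, which runs along with genotype. With normexp background correction miR-155 did not differ from miR-150 (adjusted p = 0.0812). Without WT 1, WT 3 and WT 5, 5 of the 9 members passed, and so did 61.7% of all other tested probes. The remaining members kept their sign on these fewer arrays, at −0.17 for miR-155 (adjusted p = 0.227), −0.23 for miR-142-5p (adjusted p = 0.113), −0.26 for miR-342-3p (adjusted p = 0.0753) and −0.23 for miR-146b (adjusted p = 0.130).

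Covariation was examined next, with each array's log2 signal centred on the mean of its genotype so that the genotype difference itself did not enter. The members shared a low array in each genotype. WT 5 was the lowest WT array for 9 of the 10 members, as it was for 38.8% of the tested probes, and LivPGC-1α 4 was the lowest LivPGC-1α array, ties included, for 8 of the 10, as it was for 17.3% of the tested probes. The 9 members without miR-150 averaged −0.07 on LivPGC-1α 4 and −0.19 on WT 5, in log2 units from their mean over the 10 arrays. Marker miRNAs of other liver cells stood on WT 5 at −0.05 for hepatocytes, −0.03 for endothelium and −0.07 for the list that joins stellate cells, fibroblasts and smooth muscle, and on LivPGC-1α 4 at 0.02, 0.02 and 0.09 for the same lists. Of these markers, miR-122, miR-192 and both miR-126 arms read above 40000, where the median residual SD of tested probes was 0.018. The members had residual SDs of 0.08 to 0.16. Small values for hepatocytes and endothelium therefore do not show that a low reading was particular to the members. Erythroid markers stood at 0.08 on LivPGC-1α 4 and −0.08 on WT 5. A wider list of 17 probes of other leukocyte miRNAs averaged 0.05 on LivPGC-1α 4 and −0.02 on WT 5. The WT 5 mean includes miR-212, which read 37869 there against 11776 to 12733 on the other WT arrays. It therefore does not show whether the rest of that list was low on WT 5, and the mean without miR-212 was not computed. The part of cell makeup or of array quality in these low readings was not tested.

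**Figure D3:**
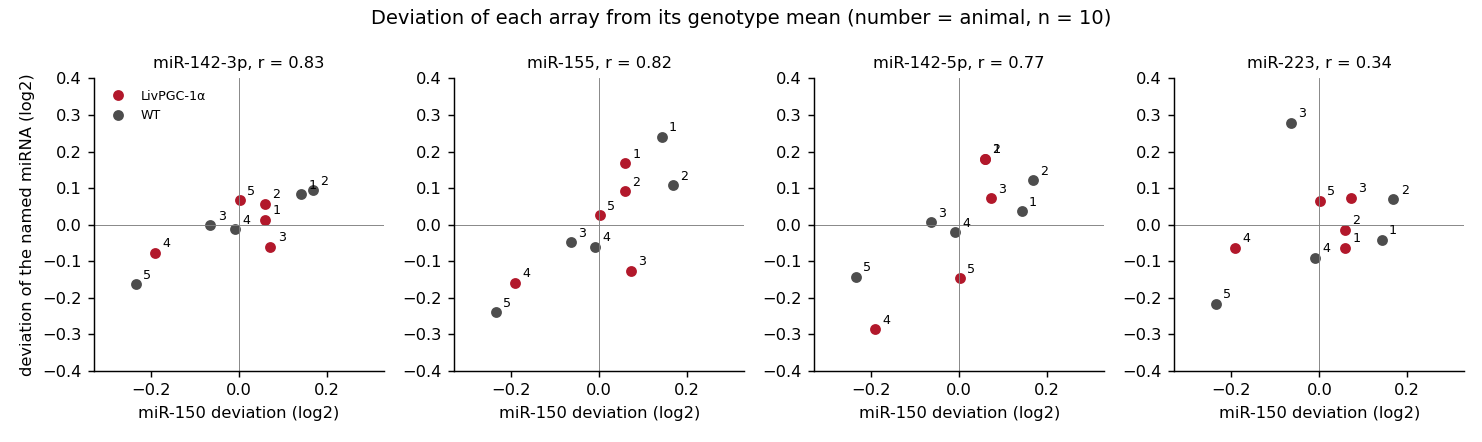
Log2 signal of miR-142-3p, miR-155, miR-142-5p and miR-223 plotted against that of miR-150 on the 10 arrays, each value as its distance from the mean of its genotype, with points numbered by array. WT 5 and LivPGC-1α 4 lie at the low end of the miR-150 axis, where miR-142-3p and miR-155 are low too, and miR-223 shows less of this (r = 0.34).

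Within genotype and after quantile normalization, the members with the highest r to miR-150 were miR-142-3p, miR-155 and miR-142-5p, an order that depended on the scaling. Over the 10 arrays miR-142-3p followed miR-150 with a Pearson r of 0.83 (exact permutation p = 0.0093, adjusted p = 0.111) and a Spearman rho of 0.77 (exact permutation p = 0.0333). miR-155 gave r = 0.82 (exact permutation p = 0.0099, adjusted p = 0.111) and rho = 0.75 (exact permutation p = 0.0308). miR-142-5p gave r = 0.77 (exact permutation p = 0.0011, adjusted p = 0.05) and rho = 0.70 (exact permutation p = 0.0031). These were 3 of the 45 pairs of members compared, with p-values adjusted over the 45. Adjustment over the pairs with miR-150 alone had been planned. It was not computed, and it would give lower adjusted values for these 3. No pair had an adjusted p of r under 0.05, and 8 pairs had an unadjusted one under 0.05. The arrays were permuted within genotype over 14400 regroupings, which allow no p below 6.94e-05. Without WT 5 and LivPGC-1α 4, the 2 arrays farthest from the median of miR-150, r was 0.51 for miR-142-3p, 0.60 for miR-155 and 0.50 for miR-142-5p. Without WT 1, WT 3 and WT 5 it was 0.63, 0.67 and 0.86 for the same miRNAs. With any 1 array left out, r ranged from 0.68 to 0.94 for miR-142-3p, from 0.71 to 0.94 for miR-155 and from 0.65 to 0.83 for miR-142-5p. Over the 4 other scalings r ranged from 0.71 to 0.86 for miR-142-3p, from 0.71 to 0.84 for miR-155 and from 0.53 with cyclic loess to 0.75 without normalization for miR-142-5p.

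The remaining members had a lower r with these normalized signals. r was 0.62 for miR-146a (exact permutation p = 0.0775), 0.61 for miR-342-3p (exact permutation p = 0.140), 0.53 for miR-342-5p (exact permutation p = 0.225), 0.48 for miR-181a (exact permutation p = 0.240), 0.34 for miR-223 (exact permutation p = 0.476) and −0.12 for miR-146b (exact permutation p = 0.771). Without WT 5 and LivPGC-1α 4, r was −0.14 for miR-146a, −0.21 for miR-342-3p, 0.04 for miR-342-5p, −0.03 for miR-181a and −0.42 for miR-223, so that these 5 relations rested on those arrays, and it was −0.63 for miR-146b. Single WT arrays moved some of them in opposite directions. r was 0.13 for miR-342-3p and −0.12 for miR-223 without WT 5, and 0.94 for miR-342-3p and 0.79 for miR-223 without WT 3. Without normalization r was 0.84 for miR-342-5p, 0.83 for miR-181a, 0.75 for both miR-342-3p and miR-146a, 0.64 for miR-223 and 0.48 for miR-146b, so that the first 4 of these miRNAs lay above miR-142-5p (0.747) on that scale, where arrays also differ in overall brightness. With the 75th percentile of all probes miR-342-5p (0.621) also lay marginally above miR-142-5p (0.616).

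**Figure D4:**
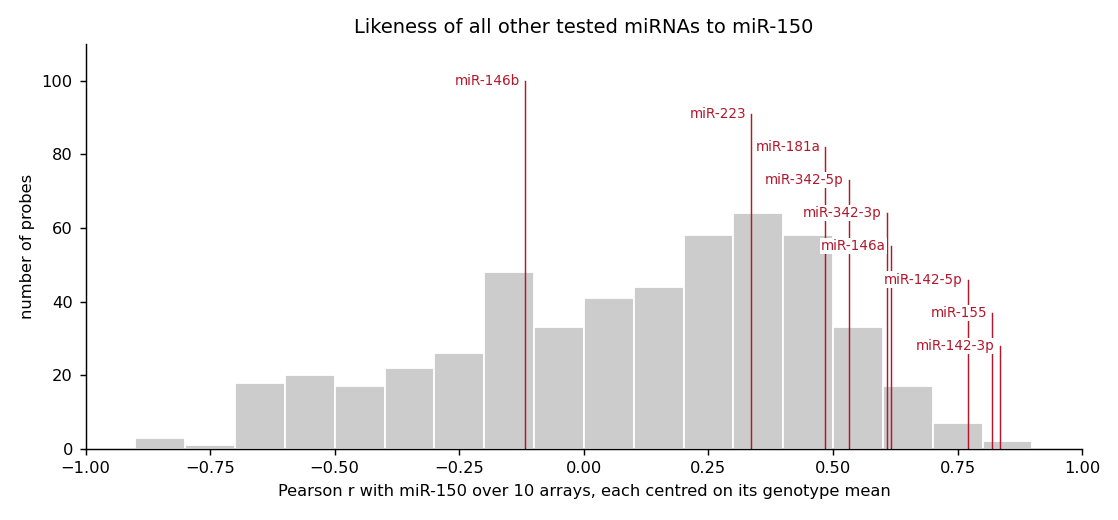
Histogram of Pearson r with miR-150 for the 512 other tested probes (x axis r over the 10 arrays, each centred on its genotype mean; y axis number of probes), with the 9 other members as labelled lines. The members' median is 0.61 and that of all probes 0.15, and miR-142-3p, miR-155 and miR-142-5p stand at the right end.

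As a description over all tested probes, the 5 most like miR-150 were miR-142-3p (r = 0.83), miR-155 (r = 0.82), miR-30e (r = 0.80), miR-509-5p (r = 0.78) and miR-142-5p (r = 0.77), so that 3 of the 5 were members. That rank holds for signals centred on the genotype mean. Uncentred, miR-155 ranked 10 (r = 0.81), miR-142-5p 23 (r = 0.74) and miR-142-3p 82 (r = 0.58) of the 512, and no member was among the first 5. The median r was 0.61 over the 9 other members and 0.15 over all 512 probes, whose quartiles were −0.15 and 0.38. All these values share the 10 arrays and the miR-150 signal. Among the members themselves, 44 of the 45 pairs had r above 0, and the 36 pairs without miR-150 had a median r of 0.42. The same values over pairs of all tested probes were not computed, so that these have no background to be read against. The closest pair was miR-142-3p with miR-155 (r = 0.88, exact permutation p = 0.0051, adjusted p = 0.111; rho = 0.89), which kept r = 0.84 without WT 2 and WT 5. The arms of 1 hairpin were no closer than that, at r = 0.52 for miR-142-3p with miR-142-5p and 0.62 for miR-342-3p with miR-342-5p, and miR-146a with miR-146b gave r = 0.25.

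A further list of 18 leukocyte miRNA names gave the wider picture. It was made of other arms and family members of the 10, macrophage and activation miRNAs, and miRNAs of lymphoid clusters. The list matched 17 probes, since miR-106a has 2 and miR-155* and miR-223* were not matched to a probe, and 14 of the 17 were tested. The opposite strand of miR-150 (miR-150*), miR-147 and miR-363 were detected on no array. Of the 14, 10 had a change above 0 and 4 below it, with a median of 0.11. None passed the adjusted threshold, and 4 had an unadjusted p under 0.05, all higher in LivPGC-1α, or 28.6% against 10.5% of the tested probes. That count was 6 with the 75th percentile of all probes, 0 without normalization, 1 with the chip position term, 1 without LivPGC-1α 4 and 2 without LivPGC-1α 2, WT 3 or WT 4. The share of all tested probes at that p, in either direction, moved too. It was 32.7%, 6.63% and 7.02% in the first 3 of these settings and 12.7% to 13.5% without the named arrays. miR-181a-1*, the passenger strand of Mir181a-1, had signals of 1101, 1164, 1159, 1092 and 1121 in LivPGC-1α and 1031, 1001, 906, 1031 and 969 in WT livers. These ranges did not overlap and the change was 0.19 ± 0.04 (SE, adjusted p = 0.0875), though the probe was detected on only 4 LivPGC-1α and 2 WT arrays. The other 3 were miR-511, which lies in the macrophage mannose receptor gene in mice (0.13, adjusted p = 0.312), miR-92a of the miR-17 to miR-92 cluster (0.08, adjusted p = 0.284) and 1 of the miR-106a probes (0.21, adjusted p = 0.324), of which the other probe gave −0.02. miR-212 read 37869 on WT 5, against 11776 to 12733 on the other WT arrays and 12733 to 14725 on the LivPGC-1α arrays.

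The summed signals of other cells' markers overlapped between the genotypes, which for the brightest of them says little. Among the 39 tested probes above 40000, miR-122, miR-451 and both miR-126 arms included, the median absolute change was 0.010. The 4 erythroid probes (miR-451, miR-144 by 2 probes and miR-486), which report the blood left in the organ, were detected on all arrays and summed to 100281 to 112733 in LivPGC-1α and 106074 to 126222 in WT livers. The highest WT sum was that of WT 1, and the other WT arrays reached 111795 at most. Among the erythroid probes, miR-451 gave a change of 0.0016 and the 2 miR-144 probes 0.065 and −0.024 (adjusted p of 0.945 or above by limma). miR-486 gave −0.25 (unadjusted p = 0.0421, adjusted p = 0.327 by limma), opposite in sign to miR-150. Its highest signal was on WT 1, at 34992 against 25017 to 27725 on the other WT arrays, and its change without WT 1 was not examined. The 2 endothelial probes summed to 104935 to 106891 in LivPGC-1α and 103297 to 106891 in WT livers, and the 6 probes of stellate cells, fibroblasts and smooth muscle to 157443 to 174222 in LivPGC-1α and 155972 to 173073 in WT livers. The 4 striated muscle probes summed to 4250 to 4555 in LivPGC-1α livers. In WT livers they summed to 85234 on WT 1 and to 3924 to 5183 on the other arrays, so that the WT range rests on 1 array.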

How the data were processed

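Total liver RNA was hybridised by the authors to Illumina miRNA BeadChips. The authors deposited an intensity per probe and array, the mean over its beads, without background subtraction or scaling, and beside it a detection p-value against the negative controls of the same array. They also deposited a table of quantile-normalized intensity, whose columns share a median of 2052.3 and held 97.6% to 99.8% of values within 1% of those computed here. It is linear, not centred, and runs in the scanner signal's direction. For GenomeStudio, the scanner software, a version was not given in the sources used here. Names are those of the array design. Arrays give no read depth, and their number limits the precision.

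Intensities were quantile-normalized over 655 probes, floored at 1 and log2-transformed. The 513 probes with a detection p of at most 0.01 on at least 1 array were tested with limma 3.58.1 in R 4.3.3 (lmFit and eBayes, no covariate), two-sided, with Benjamini-Hochberg adjustment, and 142 were not. The same fit was run on each probe's ratio to miR-150. Correlations and exact two-sided permutation tests within genotype used Python 3.11.15, numpy 2.4.6 and scipy 1.17.1, and figures matplotlib 3.10.9. The scripts were tested on simulated data. Alternatives were no normalization, 75th percentile scaling, cyclic loess, normexp background correction, other filters, trended and weighted fits, a chip position term, a replicate block and left-out arrays, for which the normalized values and the tested probes were kept as they were. Every member is named, and of the further lists those at an unadjusted p under 0.05. The 10 members and the other lists were chosen with earlier results of these data known. Same-numbered arrays of the genotypes correlated at −0.37 to 0.33. Such values cannot settle whether the numbers pair the samples, and the labels do not say.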

Additional observations from a re-analysis of the deposited data

Results flagged for a closer look

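Each miRNA of the 2 leukocyte lists was examined in each genotype for 1 array that lies far from the other 4, by the gap to its nearest neighbour over the range of the 5 log2 values, with 0.71 as the limit. Chance passes about 1 in 20 such groups, or 2.4 of the 48 examined, and 5 passed. miR-150 itself was low on LivPGC-1α 4 (0.732, a signal of 19913), and without that array its change was 0.45 (adjusted p = 0.0702). miR-342-5p was high on LivPGC-1α 2 (0.746, a signal of 3333). miR-181d was low on LivPGC-1α 3 (0.806, a signal of 1047), and so was miR-92a (0.803, a signal of 32195). The widest gap was that of miR-212, which was high on WT 5 (0.933, a signal of 37869), an array on which most members were low.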

How the results depend on the processing

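The log2 change of miR-150 was above 0 under all 25 alternatives and was called in 1, the 75th percentile of all probes (0.55, adjusted p = 0.00673), which moved the median of all probes to 0.075 and called 80 of the 513 probes, against 0 to 3 in the other alternatives and 2 as reported. It was 0.34 to 0.45 with 1 array left out (adjusted p 0.0600 to 0.177), and 0.40 (adjusted p = 0.182) with the replicate number as a block. The labels do not say whether the numbers pair the samples, and 1 of 10 arrays was most like the array of its own number. Members at an unadjusted p under 0.05 numbered 3 with the 75th percentile of all probes and without WT 1 and WT 3, 2 with the 75th percentile of detected probes, the replicate block and without WT 1, WT 3 and WT 5, 4 with the chip position term, and 1 to 2 with 1 array left out, against 1. Over all tested probes the share at that p was 32.7%, 10.3%, 18.9%, 11.5%, 10.5% and 7.02% in these settings, in the order named. It was 11.7% to 16.6% with 1 array left out, 6.63% without normalization and 14.4% as reported. Members that differed from miR-150 numbered 5 without WT 1, WT 3 and WT 5 and 8 to 9 with 1 array left out, against 9. The share of all other tested probes that differed from it was 61.7%, 71.7% to 86.9% and 81.6% in the same order. Other leukocyte miRNAs at that p numbered 6 with the 75th percentile of all probes, 0 without normalization, 2 with the 75th percentile of detected probes, the block and without WT 1 and WT 3, 1 with the chip position term, and 1 to 4 with 1 array left out, against 4. Signs turned for small changes, and the cause was not tested: without normalization miR-223 (0.047), miR-146a (0.034) and miR-146b (−0.0010); with the 75th percentile of all probes miR-223 (0.13) and miR-146a (0.12); with that of detected probes miR-342-3p (−0.011), miR-146b (−0.048) and miR-181a (−0.031); with array weights miR-181a (−0.011); with the chip position term miR-223 (0.049), miR-342-5p (0.035) and miR-146a (0.15); without WT 1 and WT 3 miR-223 (0.052) and miR-146a (0.0011); without WT 1, WT 3 and WT 5 miR-142-3p (−0.014) and miR-181a (−0.057). With 1 array left out, miR-142-3p ranged from −0.014 to 0.051, miR-223 from −0.082 to 0.042, miR-146a from −0.050 to 0.034 and miR-181a from −0.020 to 0.059.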
